A study of Mus musculus with 28 samples.

Results

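Retinal microglia taken 2 weeks after an intraocular injection of lipopolysaccharide (LPS) were compared with microglia of naïve retinas, to ask which transcripts were still changed once the acute inflammation had passed and which were back at the naïve level. The comparison comprises 17 of the 28 retinas sequenced, with all 7 labelled EIU 2 weeks and all 10 labelled naïve, and the retinas at 4 h (6) and 18 h (5) serve as the acute reference. All mice were male Cx3cr1CreER:R26-tdTomato heterozygotes on C57BL/6, in which a Cre recombinase driven from the fractalkine receptor locus turns on a red fluorescent protein after tamoxifen. Tamoxifen was applied to the eye for 3 days at an age of 4 to 5 weeks, and after a further 4 weeks 10 ng LPS was injected into the vitreous, which produces endotoxin-induced uveitis (EIU). From each retina 600 live tdTomato-high cells were sorted and their polyadenylated RNA was sequenced. The naïve group is not labelled as injected with vehicle, so LPS and the injection itself cannot be told apart here. The labels do not say which retinas came from the same animal, and the p-values measure the spread between retinas. The genotype is shared by all groups, so effects of the reporter alleles cannot be seen.

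Microglia are the resident macrophages of the retina and brain. In health they hold a homeostatic programme of purinergic and fractalkine receptors and of transcription factors such as Sall1. LPS binds toll-like receptor 4 with its partners CD14 and MD-2 and sets off NF-kappa B and interferon signalling, which brings a burst of cytokines and chemokines and later of acute phase proteins and antigen presentation genes, and feedback inhibitors such as A20 and the SOCS proteins then shut the response down. Microglia that keep a trace of an earlier stimulus are often described as primed or trained.

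Levels are given as RPKM, reads scaled by transcript length and by sequencing depth, and differences as log2 of RPKM + 1, so changes of low genes come out too small. Of 40021 genes listed, the 13164 with at least 1 RPKM in at least 5 retinas were tested. Alignments ranged from 7510000 to 15300000 in the naïve and from 9930000 to 15400000 in the 2-week retinas. The number of genes with at least 1 RPKM ran from 6552 to 11825 in the naïve retinas and from 6644 to 11607 at 2 weeks. Naïve retinas 3 and 4 and 2-week retina 1 were lowest, with 7088, 6552 and 6644 genes, and all came from experiment 1 of the 2 experiments. Retina 4 of the 18 h group, with 6969 genes, was also low. Experiment 1 gave 6 naïve and 4 2-week retinas, and experiment 2 gave 4 and 3. The sorted cells carried the defining microglial transcripts in both groups: P2ry12, a purinergic receptor, stood at 866 to 2714 RPKM in naïve and at 642 to 2121 at 2 weeks, and Siglech, a sialic acid-binding lectin, at 117 to 278 and at 154 to 351. The neutrophil genes Ly6g, S100a9 and Mmp8 were listed at 0 in all 17 retinas, and Ccr2, a monocyte chemokine receptor, reached at most 0.701 RPKM. Fewer cells of a type and less RNA per cell cannot be told apart in such bulk samples.

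One gene was differentially expressed at 2 weeks. Genes were called differentially expressed (DEGs) where the fold change reached 2 and the adjusted p did not exceed 0.05, and Saa3 alone among the genes tested met both (0.00760% of genes). No gene was a DEG in the lower direction, and with an unadjusted p under 0.05 from limma 263 genes were higher (2.00%) and 115 lower (0.874%). Were no gene different, 658 genes would be expected at that level, with a wider spread around this number where genes vary together. After Saa3 the smallest adjusted p was 1. The median difference of all genes was 0.07, with 80% of genes between -0.39 and 0.61, and 57.4% of genes were higher at 2 weeks, which is the background for the gene groups described here. A difference of 2-fold or more, whatever its p, was seen for 347 genes at 2 weeks (292 higher and 55 lower), beside 2080 at 4 h and 1906 at 18 h.

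**Figure D1:**
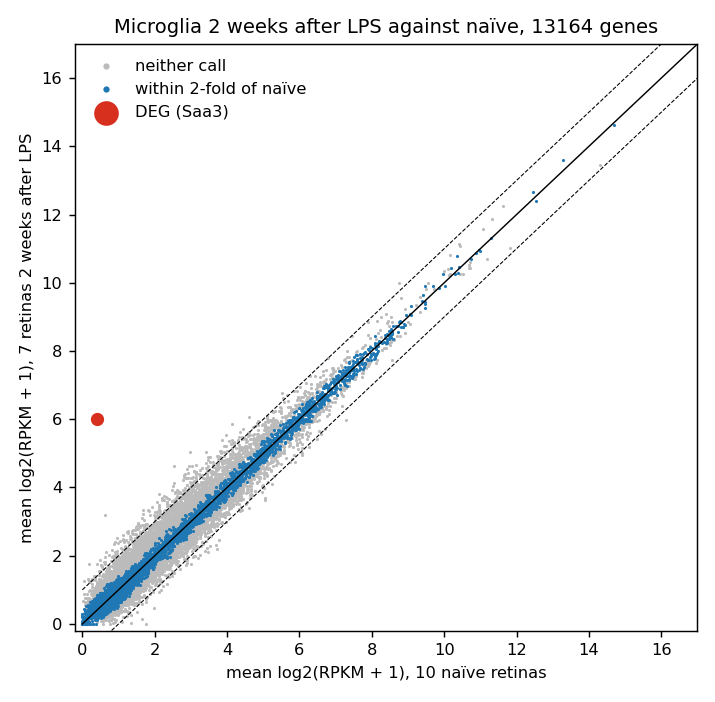
Mean log2(RPKM + 1) of 13164 genes in 7 retinas 2 weeks after LPS (vertical) against 10 naïve retinas (horizontal), each point a gene. The solid line marks equality and the dashed lines a 2-fold difference. Saa3 (red) lies far above the lines, and the 4762 genes that tested as within 2-fold of naïve (blue) follow the diagonal.

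Saa3 encodes serum amyloid A3, an acute phase protein made locally by macrophages and other cells in response to LPS. The gene lies on chromosome 7 (46711998 to 46715700, minus strand, GRCm38). Its 7 values at 2 weeks were 136, 155, 18.2, 24.6, 54.5, 108 and 73.2 RPKM, whereas the 10 naïve values ran from 0.0364 to 0.649 with a median of 0.342. Every 2-week retina lay above every naïve retina, and Saa3 was the only gene of those tested with all 7 values above all 10 naïve values (0.00760% of genes), while no gene had all 7 below. The log2 fold change was 5.60 (standard error 0.70, 95% interval 4.16 to 7.03, adjusted p = 7.56e-05 from limma). It was 5.35 within experiment 1 and 5.93 within experiment 2, so that both experiments showed an increase of similar size.

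At 18 h Saa3 had stood between 1198 and 12044 RPKM with a median of 4173, and at 4 h between 0.209 and 155 with a median of 8.88. The 2-week level was thus 6.08 lower than at 18 h on the log2 scale (adjusted p = 2e-05 from limma). It was 2.40 higher than at 4 h, where the difference did not pass (adjusted p = 0.068 from limma). The 4 h values were 15.2, 155 and 108 RPKM in experiment 1 and 0.209, 2.58 and 1.85 in experiment 2. At 2 weeks experiment 1 gave 18.2 to 155 RPKM, overlapping with its 4 h values, and experiment 2 gave 54.5 to 108, above its 4 h values. Other serum amyloid genes did not share this level: Saa1 was listed at 0 in all 2-week retinas, as were Saa2 and Saa4. The 2-week retinas highest in Saa3 were numbers 1, 2 and 6, from both experiments and both eyes.

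**Figure D2:**
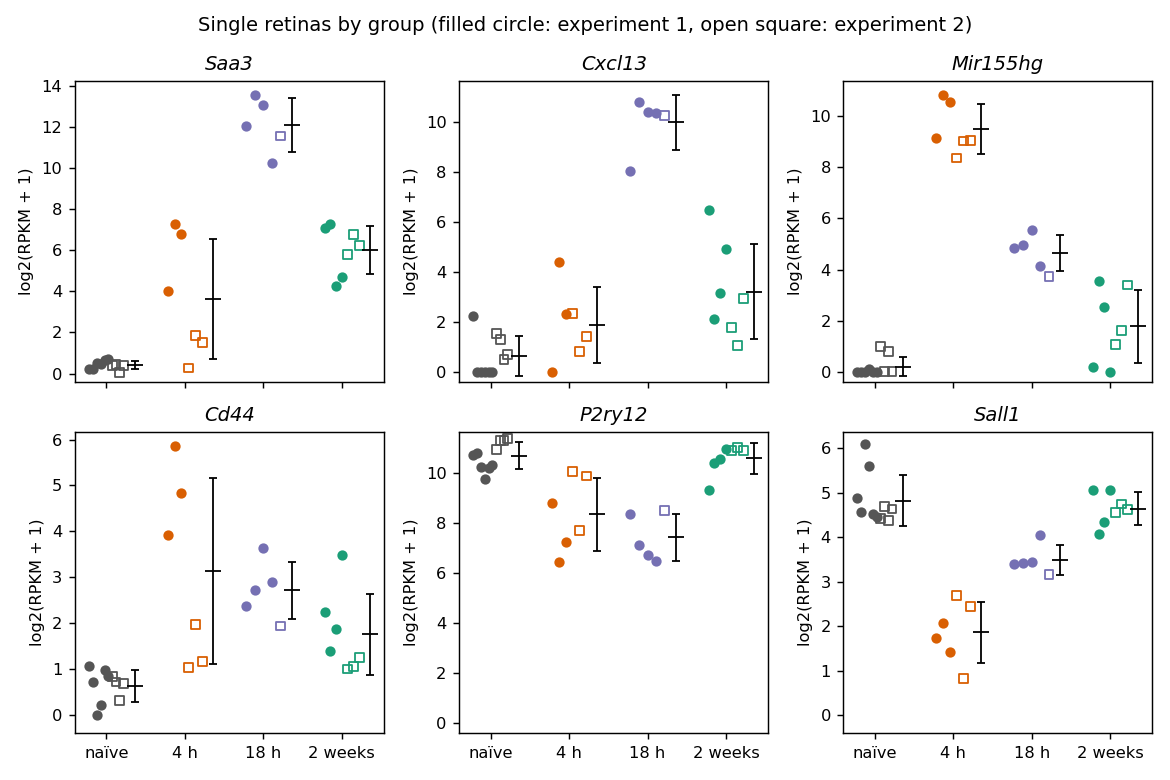
Log2(RPKM + 1) of 6 genes in single retinas by group, with the group mean and SD (bar) at the right of each group. Filled circles are experiment 1 and open squares experiment 2. The 2-week retinas lie above all naïve retinas for Saa3, overlap with them for Cxcl13, Mir155hg and Cd44, and lie within the naïve range for P2ry12 and Sall1, apart from 1 lower 2-week retina for P2ry12 and 2 for Sall1.

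The 250 bases before the RefSeq start of Saa3 and of Cxcl13, the gene with the second smallest p, are shown because these transcripts were the highest above naïve at 2 weeks among the genes that had risen at 18 h. Capitals mark matches on either strand to 3 motifs: TTNNGNAA, which C/EBP factors bind, TATAAA, and the NF-kappa B consensus. The sequences are from RefSeq on GRCm38.p6, written 5′ to 3′ on the strand of the gene. For Saa3 the GENCODE gene model begins slightly further upstream, so the last bases printed lie in its first exon.

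Saa3 (chr7:46715677-46715926, minus strand): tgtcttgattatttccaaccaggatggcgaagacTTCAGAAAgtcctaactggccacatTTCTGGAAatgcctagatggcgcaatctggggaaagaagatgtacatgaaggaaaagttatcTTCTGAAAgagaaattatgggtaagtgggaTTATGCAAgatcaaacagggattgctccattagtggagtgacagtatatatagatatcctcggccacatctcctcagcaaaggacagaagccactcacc
Cxcl13 (chr5:95956689-95956938, plus strand): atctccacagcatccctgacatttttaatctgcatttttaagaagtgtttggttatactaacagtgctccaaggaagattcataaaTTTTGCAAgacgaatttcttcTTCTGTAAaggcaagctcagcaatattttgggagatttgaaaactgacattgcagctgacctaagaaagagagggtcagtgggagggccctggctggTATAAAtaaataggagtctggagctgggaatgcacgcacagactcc

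The Saa3 stretch held 4 matches to TTNNGNAA, beginning 216, 191, 129 and 99 bases before the start, and that of Cxcl13 held 2, beginning 164 and 143 bases before it. The Cxcl13 stretch also held TATAAA, beginning 46 bases before the start. None of the matches overlapped another. Of 32851 promoter stretches of the same length, 36.8% held TTNNGNAA, 12.4% held TATAAA and 3.9% held the NF-kappa B consensus, which neither of these stretches held. A match is a description of the letters and not a site of binding.

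Cxcl13, a chemokine that attracts B cells, lies on chromosome 5 (95956951 to 95961068, plus strand). It stood at 88.5, 3.30, 7.83, 29.1, 2.39, 1.07 and 6.57 RPKM at 2 weeks and at 0 to 3.75 with a median of 0.206 in naïve retinas. The groups overlapped, and 4 of the 7 retinas lay above all naïve values. The log2 difference was 2.57 (standard error 0.62, adjusted p = 1 from limma), and it was 3.79 in experiment 1 and 0.91 in experiment 2. Without 2-week retina 1 it was 2.02. Cxcl13 had a median of 1300.4 RPKM at 18 h, and the 2-week level was lower than that by 6.78 on the log2 scale (adjusted p = 3.3e-07 from limma).

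Mir155hg, the host transcript of the inflammatory microRNA miR-155, lies on chromosome 16 (84703167 to 84715245). It stood at 0.141, 10.8, 4.79, 0, 1.10, 2.07 and 9.52 RPKM at 2 weeks, and 5 of these values exceeded the highest naïve value of 0.982. Of the 10 naïve retinas 7 were listed at 0. The log2 difference was 1.58 (standard error 0.45, adjusted p = 1 from limma), with 1.55 and 1.58 in the 2 experiments. At 4 h the transcript had a median of 552 RPKM and at 18 h of 27.7, and the 2-week level was lower than both, by 7.74 (adjusted p = 2.4e-12) and by 2.88 (adjusted p = 0.0012 from limma). The mature microRNA itself was not measured. Its guide arm in RefSeq is shown with the seed, bases 2 to 8, in capitals.

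mmu-miR-155-5p: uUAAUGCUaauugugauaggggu

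The other genes with the smallest p among those higher at 2 weeks included Aste1, Prim2 (a DNA primase subunit), the pseudogene Rps27a-ps2, Sdr42e1, A930004J17Rik and H2-Q7, a class Ib histocompatibility gene. Their log2 differences were at least 0.77, the value of Sdr42e1, and all had an adjusted p of 1. Most were low transcripts. Prim2 stood at 1.60 to 4.29 RPKM at 2 weeks and at 0.0593 to 2.37 in naïve retinas, and its difference was 1.63 in experiment 1 and 0.25 in experiment 2. Reads of Rps27a-ps2 and H2-Q7 may be divided with near-identical copies, so these 2 values are uncertain.

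Among those lower at 2 weeks, the 10 with the smallest p included Hjurp, Gm25939, Mir5136, Nup43, Pomc, C1rl, 4930517O19Rik, Mki67 and Trmt13, with differences between -0.91 for C1rl and -1.52 for Nup43. Pomc, the precursor of melanocortin peptides, stood at 0 to 5.28 RPKM with a median of 2.88 at 2 weeks and at 3.82 to 19.8 with a median of 5.89 in naïve retinas, and 6 of 7 retinas lay below all naïve values. Hjurp, a chaperone of the centromeric histone, had 5 of 7 retinas below all naïve values. Its difference of -0.94 was -0.16 in experiment 2 alone and -0.63 without naïve retinas 3 and 4 and 2-week retina 1. For Nup43, a nuclear pore subunit, the difference was -2.54 in experiment 1 and -0.09 in experiment 2. Leaving out naïve retinas 3 and 4 and 2-week retina 1 moved the Pomc difference from -1.22 to -0.63.

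Acute phase and antibacterial genes were DEGs in the higher direction at 18 h for 9 of the 11 tested (2.84% of all genes). Their median log2 fold change was 0.58 at 4 h and 3.19 at 18 h. At 2 weeks the median was 0.30 with 8 of 11 higher, and Saa3 was the single member past the test. Lcn2, which encodes the iron-scavenging lipocalin 2, had a median of 121 RPKM at 18 h and stood at 0 to 0.995 at 2 weeks, inside a naïve range of 0 to 0.959 apart from 1 retina. The 2-week level of Lcn2 was lower than at 18 h by 5.46 (adjusted p = 1.1e-06 from limma). Wfdc21, a small secreted protein gene, had a median of 69.8 RPKM at 18 h and was listed at 0 in all 17 naïve and 2-week retinas. Fpr1, a receptor for bacterial peptides, stood at 0 to 131 RPKM with a median of 7.58 at 2 weeks and at 0 to 21.9 with a median of 1.39 in naïve retinas, a log2 difference of 1.45 (adjusted p = 1 from limma).

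Of 19 cytokine genes tested, 13 were DEGs in the higher direction at 4 h (3.68% of all genes), when the median log2 fold change was 2.72, and the median was 0.95 at 18 h. Their median at 2 weeks was 0.43, with 16 of 19 higher and none past the test. Il12b, a subunit of interleukin-12, had reached 2333 to 11307 RPKM at 4 h and stood at 0 to 1.23 at 2 weeks, with 4 of 7 retinas listed at 0. Tnf had a median of 1514 RPKM at 4 h and stood at 0.0514 to 13.2 with a median of 1.41 at 2 weeks, against 0 to 4.29 in naïve retinas. Il1b stood at 0.0530 to 13.1 RPKM at 2 weeks and at 0 to 4.57 in naïve retinas. Each of these 3 was lower at 2 weeks than at 4 h, with log2 differences of -12.25 for Il12b, -8.72 for Tnf and -8.41 for Il1b (adjusted p of 5e-17, 9.8e-12 and 3.6e-10 from limma). The largest 2-week differences of the group were those of Ebi3, a subunit of cytokines of the interleukin-12 family, at 1.59, and Osm, which encodes oncostatin M, at 1.45, both with an adjusted p of 1. Ebi3 stood at 12.4 to 106 RPKM at 2 weeks and at 0 to 52.2 in naïve retinas, and its difference was 2.34 in experiment 1 and 0.42 in experiment 2.

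Chemokine genes had medians of 2.90 at 4 h and 1.80 at 18 h and of -0.04 at 2 weeks, when 9 of 21 were higher and 11 lower. Ccl5, a T cell attractant, had a median of 3692 RPKM at 18 h and stood at 42.3, 56.0, 33.8, 93.7, 16.02, 18.2 and 59.9 RPKM at 2 weeks. The naïve values ran from 2.92 to 66.6 with a median of 22.9, and the difference was 1.01 (adjusted p = 1 from limma). Ccl7, a monocyte attractant, stood at 0 to 19.98 RPKM at 2 weeks and at 0 to 50.1 in naïve retinas, after a median of 1315 at 18 h. Cxcl10, an interferon-induced chemokine, stood at 0 to 50.7 RPKM at 2 weeks and at 0 to 40.6 in naïve retinas, after a median of 1394 at 4 h.

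No gene that senses LPS or relays its signal passed the test at 2 weeks, while the share shown to lie within 2-fold of naïve ran from 8.70% to 66.7% over 3 groups of these genes. The 24 tested toll-like receptor and adaptor genes had a 2-week median of 0.24, with 18 higher, and the 12 NF-kappa B subunits and kinases one of 0.03, with 8 of 12 inside the 2-fold margin by the equivalence test. That test asks whether a difference of 2-fold or more in either direction can be left out, from the same limma fit (a one-sided test at each bound, adjusted p of at most 0.05), and 36.2% of all genes passed it. Of the toll-like receptor and adaptor genes 5 of 24 (20.8%) passed it. The NF-kappa B genes within the margin included Nfkb1, Rel, Chuk, Ikbkb and Map3k8, a kinase downstream of toll-like receptors. Map3k8 stood at 3.25 to 10.3 RPKM at 2 weeks and at 2.97 to 15.8 in naïve retinas, a log2 difference of 0.01 (95% interval -0.81 to 0.83). Feedback inhibitors of the pathway had a median of 3.37 at 4 h and of 0.28 at 2 weeks, with 14 of 23 higher and 2 of 23 (8.70%) inside the margin. The largest of these 2-week differences was that of Tnip1, a partner of A20, at 1.16, with 0.134 to 9.36 RPKM at 2 weeks and 0 to 5.80 in naïve retinas. The median of the feedback inhibitors was 0.00 within experiment 1 and 0.50 within experiment 2.

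Interferon-stimulated genes had medians of 1.36 at 4 h and 1.30 at 18 h. At 2 weeks the median was 0.25, with 38 of 51 higher, none past an unadjusted p of 0.05. Of these genes 9 of 51 (17.6%) lay inside the 2-fold margin, beside 36.2% of all genes. Bst2, which encodes the antiviral membrane protein tetherin, stood at 72.3 to 130 RPKM at 2 weeks and at 59.6 to 94.1 in naïve retinas. Its difference of 0.27 lay inside the margin (95% interval -0.16 to 0.71), and 4 of 7 retinas were above all naïve values. Usp18, a negative regulator of interferon signalling, had the highest difference of the list at 0.97. With limma's array weights, which give less weight to variable retinas, the median of the list was -0.02.

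Class I antigen presentation genes were higher at 2 weeks for 19 of 20 tested, with a median of 0.33. None passed the test, and 3 had an unadjusted p under 0.05, against 2.00% of all genes in the higher direction. H2-K1, a classical class I heavy chain on chromosome 17 (33996017 to 34000347), stood at 215, 196, 102, 205, 182, 126 and 94.3 RPKM at 2 weeks. The naïve values ran from 37.7 to 188 with a median of 81.9, and 3 of 7 retinas lay above them. The difference was 0.83 (95% interval 0.23 to 1.42, adjusted p = 1 from limma), with 0.93 and 0.70 in the 2 experiments. H2-D1, another classical heavy chain, differed by 0.99 and overlapped fully with the naïve range of 43.6 to 787 RPKM. B2m, the shared light chain, stood at 2349 to 6699 RPKM at 2 weeks and at 1223 to 6149 in naïve retinas. H2-Q6 and H2-Q7 differed by 1.16 and 1.34. Heavy chain genes are near-identical in parts of their sequence, and reads could be divided among them. The median of the list was higher than 0 in all 32 alternative analyses (range 0.24 to 0.48). Most of these left out a single retina and so shared most of the data. Other lists, such as cytokines, complement and glycolysis, also stayed above 0 in all 32, and the median of all genes kept its sign in 30. Naïve retinas 3 to 6 had the lowest mean class I levels among naïve retinas, 3.60 to 3.82 on the log2 scale beside 4.18 to 4.91. The part of this in the difference was not tested. Class II presentation genes had a median of 0.27, but of 0.92 within experiment 1 and of -0.20 within experiment 2.

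**Figure D3:**
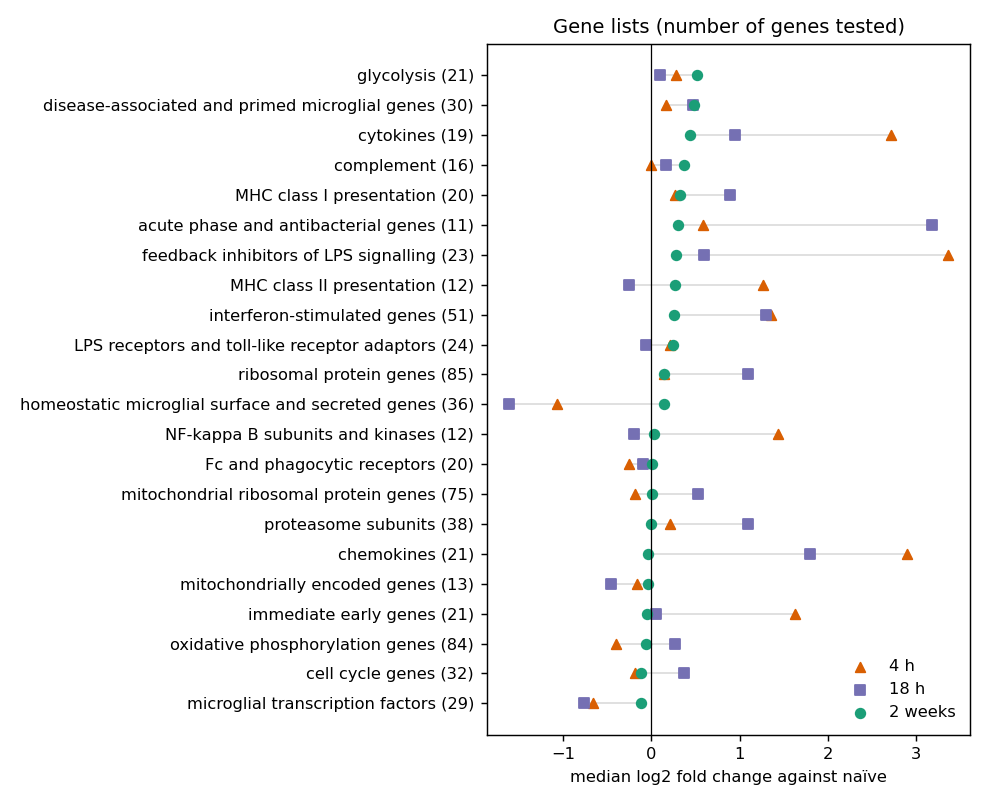
Median log2 fold change against naïve of each gene list at 4 h (triangle), 18 h (square) and 2 weeks (circle), with the number of genes tested in brackets. The 2-week medians lie between -0.12 and 0.51, while the 4 h medians reach 3.37 and the 18 h medians run from -1.62 to 3.19. All 3 time points were compared with the same 10 naïve retinas.

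No gene of the homeostatic programme passed the test at 2 weeks, and a minority of its members were shown to lie within 2-fold of naïve. The 36 homeostatic surface and secreted genes had medians of -1.07 at 4 h and -1.62 at 18 h, with 16 and 19 DEGs in the lower direction (4.39% and 1.85% of all genes), and of 0.14 at 2 weeks with 26 higher and 10 lower. At 2 weeks 15 of 36 (41.7%) lay inside the 2-fold margin, a share near the 36.2% of all genes, among them Cx3cr1, Siglech, Csf1r, Fcrls, Cst3, Tgfbr1 and Lair1. Gpr34, a lysophospholipid receptor gene on chromosome X, stood at 1103, 1237, 2025, 1439, 1130, 1397 and 1533 RPKM at 2 weeks and at 902 to 2079.9 with a median of 1816 in naïve retinas. Gpr34 was 3.26 higher at 2 weeks than at 4 h on the log2 scale (adjusted p = 0.000102) and 3.53 higher than at 18 h (adjusted p = 0.000178 from limma). Its difference from naïve was -0.28 (95% interval -1.26 to 0.69), which does not exclude a 2-fold reduction. P2ry12 differed by -0.12 (95% interval -0.96 to 0.73, adjusted p = 0.053 in the equivalence test).

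Ltc4s and Mertk were the lowest of the homeostatic list. Ltc4s, which encodes the enzyme that makes leukotriene C4, stood at 94.6, 229, 451, 267, 154, 223 and 220 RPKM at 2 weeks. Naïve values ran from 225 to 821 with a median of 331, and 4 of the 7 retinas lay below all of them. The difference was -0.81 (standard error 0.34, 95% interval -1.50 to -0.11, adjusted p = 1 from limma), with -0.93 and -0.61 in the 2 experiments and -0.55 to -0.99 over the alternatives. Ltc4s had a median of 10.9 RPKM at 18 h, and the 2-week level was higher by 3.86 on the log2 scale (adjusted p = 1.7e-07 from limma). Mertk, a receptor for apoptotic cells, stood at 23.3 to 46.1 RPKM at 2 weeks and at 23.1 to 98.2 in naïve retinas, a difference of -0.53 (95% interval -1.13 to 0.07).

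Of 29 microglial transcription factors, 12 lay inside the 2-fold margin (41.4%, near the 36.2% of all genes), including Sall1, Hhex, Mef2a, Mef2c, Maf, Runx1 and Ikzf1. Their 2-week median was -0.12, after -0.66 at 4 h and -0.76 at 18 h. Sall1, which maintains microglial identity, stood at 0.771 to 5.42 RPKM at 4 h and at 32.7, 15.8, 19.3, 32.7, 22.7, 25.9 and 23.6 RPKM at 2 weeks. The naïve values ran from 19.7 to 67.8 with a median of 23.3, and 2 of the 7 retinas lay below them. Its difference from naïve was -0.18 (95% interval -0.79 to 0.43). Hhex, a homeobox factor, had a median of 1.62 RPKM at 4 h, 37.6 at 2 weeks and 42.0 in naïve retinas. Both were higher at 2 weeks than at 4 h, Sall1 by 2.78 and Hhex by 4.02 on the log2 scale (adjusted p of 6.8e-07 and 4.2e-08 from limma).

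**Figure D4:**
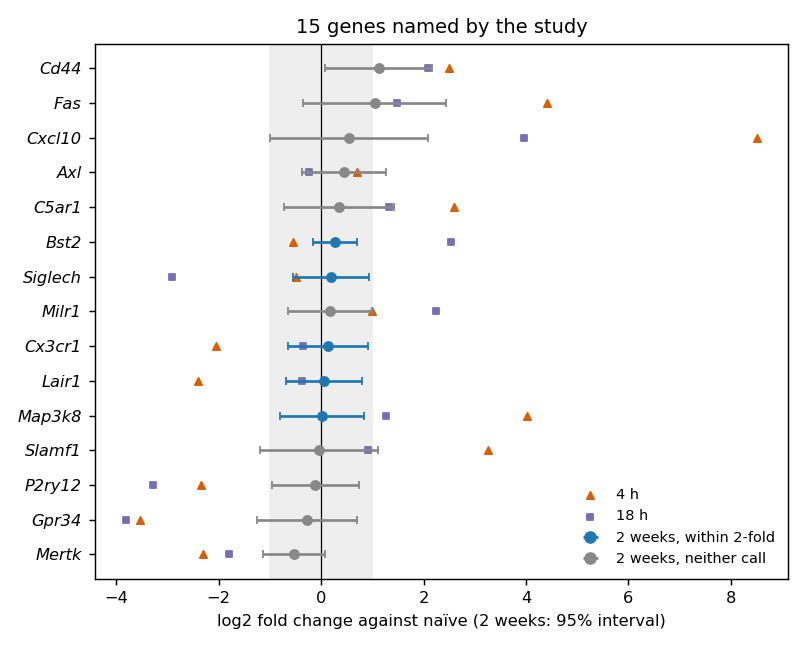
Log2 fold change against naïve of 15 genes the study names, at 2 weeks with its 95% interval (circles, blue where within 2-fold of naïve by the equivalence test), 4 h (triangles) and 18 h (squares). The grey band marks a 2-fold difference. The 2-week values lie between -0.53 for Mertk and 1.12 for Cd44, and 5 of 15 tested as within the band.

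Among the activation markers that the study names, the largest 2-week differences were those of Cd44 and Fas. Cd44, a hyaluronan receptor, stood at 3.70, 1.61, 2.66, 10.3, 0.994, 1.06 and 1.38 RPKM at 2 weeks and at 0 to 1.09 with a median of 0.631 in naïve retinas. In 5 of 7 retinas Cd44 exceeded all naïve values, and the difference was 1.12 (95% interval 0.08 to 2.16, adjusted p = 1 from limma). It was 1.62 in experiment 1 and 0.46 in experiment 2. Fas, a death receptor, differed by 1.04, with 3 of 7 retinas above all naïve values. The Fas difference was 0.63 without 2-week retina 1 and 0.41 without the 3 retinas with the fewest genes. C5ar1, the receptor for complement C5a, differed by 0.35, with 16.9 to 144 RPKM at 2 weeks and 11.4 to 126 in naïve retinas. Slamf1 differed by -0.04 and Axl, a receptor tyrosine kinase of primed microglia, by 0.45.

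Genes of disease-associated and primed microglia were higher at 2 weeks for 27 of 30 tested, with a median of 0.48, after 0.17 at 4 h and 0.47 at 18 h. None passed the test, and 6 of 30 lay inside the 2-fold margin, beside 36.2% of all genes. Spp1, which encodes osteopontin, had the largest difference at 1.54, with 139, 86.6, 13.2, 125, 12.5, 21.7 and 34.7 RPKM at 2 weeks and 0 to 42.7 in naïve retinas. Of the 3 retinas above all naïve values, all came from experiment 1, where the difference was 2.84, beside -0.30 in experiment 2. Cst7, a cysteine protease inhibitor, stood at 59.1, 227, 5.89, 86.1, 43.4, 25.2 and 78.5 RPKM at 2 weeks and at 6.77 to 54.8 in naïve retinas. Its difference was 1.04 (adjusted p = 1 from limma), with 4 retinas above and 1 below all naïve values. Fabp5, a fatty acid carrier, and Ch25h, which makes 25-hydroxycholesterol, differed by 1.35 and 1.38. The difference of Gpnmb, a lysosomal glycoprotein, was 1.08 and rested on 2-week retina 2 at 40.3 RPKM, since without it the value was 0.39. That retina had the highest mean level of this list among all 17. The median of the list was 0.67 in experiment 1 and 0.18 in experiment 2. Naïve retinas 3 to 6, with 6552 to 8562 genes detected, had the lowest mean levels of the list among naïve retinas, 4.37 to 4.80 on the log2 scale beside 5.17 to 5.70 in the other 6, and the part of this in the difference was not tested.

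Complement genes had a median of 0.36 with 11 of 16 higher, and Fc and phagocytic receptors a median of 0.01 with 10 of 20 higher. Among the complement genes C1qa, a subunit of the initiating complex, differed by 1.24 and Cd55, which inhibits the cascade, by 1.04. Cd55 was listed at 0 in 3 of 7 2-week and 6 of 10 naïve retinas, and reached 9.18 RPKM at 2 weeks. Immediate early genes, which respond to dissociation as well as to stimuli, had a median of -0.05 with 9 of 21 higher.

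Cell cycle genes had a median of -0.12 with 14 of 32 higher. Mki67, the Ki-67 proliferation marker, stood at 0 to 0.487 RPKM with a median of 0 at 2 weeks, and at 0 to 15.3 with a median of 1.98 in naïve retinas. The difference was -1.51 (adjusted p = 1 from limma), and it was -2.21 in experiment 1 and -0.46 in experiment 2. Naïve retinas 3 to 6, which had few genes detected, stood at 2.90 to 15.3 RPKM of Mki67. The other naïve retinas stood at 0 to 2.71, and the part of this in the difference was not tested. Of the mitotic genes Birc5 and Ccnb2 differed by -1.11 and -1.06, while the replication helicase genes Mcm4 and Mcm7 differed by 1.19 and 0.71. No cell cycle gene passed the test.

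Glycolytic genes were higher for 19 of 21 tested, with a median of 0.51 and none past an unadjusted p of 0.05. The largest differences were those of Pgam1 at 1.05 and Aldoa at 1.01. Pgam1 stood at 0.552 to 26.5 RPKM in naïve retinas 3 to 6, which had few genes detected, and at 81.9 to 229 in the other naïve retinas. With the number of detected genes as a covariate the median of the list was 0.27. Ribosomal protein genes had a median of 0.15 with 66 of 85 higher, and 61 of 85 lay inside the 2-fold margin (71.8%, beside 36.2% of all genes). Their 18 h median had been 1.10, with 40 DEGs in the higher direction (2.84% of all genes), and their 2-week median was 0.48 in experiment 1 and -0.31 in experiment 2. Reads of ribosomal protein genes may be divided with their pseudogenes. Oxidative phosphorylation genes had a 2-week median of -0.06, with 50 of 84 inside the margin, and those for proteasome subunits, mitochondrial ribosomal proteins and mitochondrially encoded transcripts had medians of 0.00, 0.00 and -0.04.

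The genes that had changed in the acute phase were followed as classes. At 4 h 485 genes were DEGs in the higher (3.68%) and 578 in the lower direction (4.39%), and at 18 h 374 (2.84%) and 244 (1.85%). Both acute comparisons and the 2-week comparison share the same naïve retinas, so their values against naïve are given side by side as a description. Genes higher at 4 h had a median of 2.06 then and of 0.16 at 2 weeks, and those lower at 4 h had medians of -1.54 and -0.18. For the genes higher at 18 h the medians were 1.76 and 0.22, and for those lower at 18 h they were -1.62 and -0.22. The 2-week median of the RPKM lay inside the range of the naïve retinas for 468 of 485, 568 of 578, 352 of 374 and 233 of 244 genes. That range, from lowest to highest naïve retina, is a lenient bound, and the share over all genes was not taken. These counts therefore do not show a return of the acute genes in particular. Of the 1435 genes in any of these classes, 598 (41.7%) lay inside the 2-fold margin, beside 36.2% of all genes, and 1 was a DEG at 2 weeks.

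**Figure D5:**
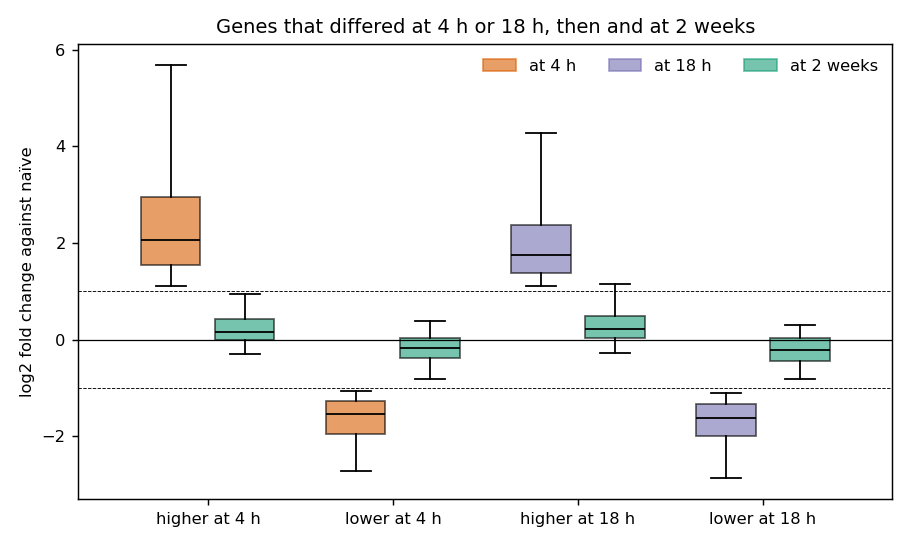
Log2 fold change against naïve of the genes that were DEGs at 4 h or 18 h, at that time (orange or purple) and at 2 weeks (green). Boxes span the quartiles with the median, whiskers the 5th to 95th percentile, and dashed lines mark a 2-fold difference. The acute medians lie between -1.62 and 2.06 and the 2-week medians between -0.22 and 0.22, all against the same naïve retinas.

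Direct contrasts of the 2-week with the acute retinas use no naïve retina in the difference. Against 4 h, 383 genes were lower at 2 weeks (2.91%) and 419 higher (3.18%), and against 18 h, 204 were lower (1.55%) and 145 higher (1.10%). Of the genes higher at 4 h 356 of 485 (73.4%) had left the 4 h level by 2 weeks in this test, and of those lower at 4 h 317 of 578 (54.8%). The shares for 18 h were 181 of 374 (48.4%) and 115 of 244 (47.1%). The acute values that chose these genes also enter the direct contrasts, so these shares are a description.

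Among the acute genes farthest from naïve at 2 weeks on the side of their acute change were, besides Saa3, Cxcl13, Mir155hg, Ebi3, Ch25h and Spp1, also Gpr18, a receptor for lipid mediators, with a difference of 1.38. Gpr18 stood at 0 to 9.27 RPKM at 2 weeks and at 0 to 1.84 in naïve retinas, with 4 of 7 retinas above all naïve values, after a median of 76.0 at 4 h. On the lower side were mostly non-coding or poorly characterised transcripts, Gm2237 at -1.38, Gm27168 at -1.23, 2310040G24Rik at -1.21, 1810011H11Rik at -1.05, Gm15747 at -1.04 and 5730507A11Rik at -1.01, with Gm25939, Pomc and 4930517O19Rik. None of these passed the test. The libraries do not mark strand, so reads of the antisense genes Gm15747 and 4930517O19Rik cannot be told from those of their partners.

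How far a return to the naïve level can be stated depends on the level of the gene. In all 4762 genes (36.2%) lay inside the 2-fold margin and 8401 genes were neither different nor inside it. With a margin of 1.5-fold no gene passed (1190 at an unadjusted p under 0.05 from limma), and with one of 4-fold 12744 did. The share inside the 2-fold margin was 50.4% for the 561 genes with a mean of at least 100 RPKM, 34.2% between 20 and 100, 18.7% between 5 and 20, and 43.6% under 5, where the log2(RPKM + 1) scale compresses differences. The median standard error of a 2-week difference was 0.39. The 95% interval reached 2-fold higher or more for 5112 genes and 2-fold lower or more for 3406.

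The 2 experiments were compared for the 2-week difference itself. No gene differed at an adjusted p of 0.05 in limma's interaction test, and 383 genes did at an unadjusted p under 0.05. The smallest p were those of Gm17139, Rgs13, AC166574.2, Enkur and Insl6. For Cxcl13 the difference between experiments was at an adjusted p of 1, and so was that for Spp1 and Prim2.

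Transcripts of other retinal cells were present in the sorted samples of both groups. The summed level of 19 rod and cone genes was 2759 to 9076 RPKM in naïve retinas and 3261 to 8240 at 2 weeks, and Gnat2, the cone transducin, differed by 2.04 (adjusted p = 1 from limma). Gnat2 stood at 0 to 0.337 RPKM in naïve retinas 3 to 6 and at 15.7 to 38.4 in the other 6, and at 22.4 to 48.1 at 2 weeks. All 10 tested genes of pigment epithelium, lens and melanocytes were higher at 2 weeks, with a median of 0.63 and a summed level of 56.0 to 202 against 23.3 to 167 RPKM. Border-associated macrophage markers were lower for 8 of 9 tested, with a median of -0.69 and a summed level of 9.69 to 524 RPKM at 2 weeks against 13.7 to 665 in naïve retinas. The summed levels of neutrophil markers were 7.44 to 65.6 at 2 weeks and 5.60 to 83.2 in naïve retinas. Those of monocyte markers were 13.04 to 41.2 and 10.4 to 57.1, and those of T, B and NK cell markers 23.9 to 57.3 and 20.2 to 81.5. Below 1 RPKM in all 17 retinas were 11 of 12 neutrophil, 9 of 12 monocyte and 13 of 15 lymphocyte markers. Few genes therefore make up these sums. The medians of the tested genes were 0.17 for neutrophil markers (2 genes), 0.24 for monocyte markers (2 genes) and 0.10 for lymphocyte markers (3 genes), and those for other retinal neurons, Müller glia, endothelium and erythrocytes were -0.01, 0.29, -0.12 and 0.48. The medians of neutrophil, monocyte, other neuron, endothelium and erythrocyte markers had opposite signs in the 2 experiments. No gene of these lists passed the test, and the part of these cells in the other results was not tested.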

How the data were processed

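RNA of 600 sorted microglia per retina was amplified with SMART-Seq v4 and made into Nextera XT libraries, which do not mark strand. Per the submitters' processing notes and the study's methods, the authors used bcl2fastq 2.20, aligned reads to mm10 with STAR 2.5.3a and quantified Ensembl transcripts in Partek by expectation-maximisation, a method that shares reads among genes and may return exact zeros. The deposited values are RPKM per gene and retina, with the number of alignments of each retina. RPKM hold no counts, so no counting interval is given. The 2 deposited DEG tables hold only the authors' own comparisons at 4 h and 18 h and were not used.

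Here genes reaching 1 RPKM in 5 or more of 28 retinas were kept, and 4 lines sharing a symbol were kept apart. Values were tested as log2(RPKM + 1) with limma 3.58.1 (R 4.3.3). One model held the 4 groups and all 28 retinas, its variances followed a trend with the mean, and p-values were adjusted over all genes by the Benjamini-Hochberg method. Equivalence was tested with a one-sided test at each bound of a margin of 2-fold, and experiments were compared by interaction. The tests were checked on simulated data. Replicate numbers in the labels do not pair naïve and 2-week retinas.

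Members and gene lists were chosen with earlier results of these data known. Named genes are the DEGs, the 10 smallest p in each direction, genes without overlap, the 5 largest acute changes without overlap and the 5 farthest from naïve per acute class, the 16 genes the study names, the 5 smallest interaction p, and members of the gene lists, which were written from general knowledge. Alternatives were other pseudocounts (0.1 and 10), filters, scalings, weights, covariates, single experiments, a replicate block and each retina left out. Leaving out the 3 retinas with the fewest genes, and the number of detected genes as a covariate, were added after seeing the data. Coordinates are from GENCODE M21 (GRCm38), promoters and microRNAs from RefSeq, and figures were drawn with Python 3.11.15. Values of some genes are not reported here.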

Additional observations from a re-analysis of the deposited data

Results flagged for a closer look

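Among the named genes and 2 measures per retina, 122 groups of values were examined for a single retina far from the others of its group by Dixon's criterion, and 16 stood apart. Chance flags about 1 in 20 groups. Retina 1 of the 2-week group accounts for 9 of the 16. It had 6644 genes with at least 1 RPKM where the other 6 had 9536 to 11607. It was high for Aste1 (7.33 RPKM, others 1.10 to 2.76), A930004J17Rik (12.3, others 0.713 to 1.75) and Gm15523 (129.6, others 12.98 to 29.0). It was low for Pomc (0, others 2.08 to 5.28), Gm2237 (0.00468, others 2.97 to 8.37), 2310040G24Rik (0, others 9.02 to 21.8), P2ry12 (642, others 1363 to 2121) and Milr1 (3.10, others 21.4 to 47.8).

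Single naïve retinas stood apart for Hhex (99.5 RPKM in retina 3, others 31.5 to 52.5), 1810011H11Rik (2.59 in retina 4, others 14.6 to 53.0), Axl (0.312 in retina 4, others 4.23 to 21.5), Spp1 (0 in retina 5, others 4.92 to 42.7) and Cx3cr1 (318 in retina 1, others 45.2 to 115). At 2 weeks Gm25939 reached 0.153 RPKM in retina 6 where the other 6 were at or near 0, and Mki67 reached 0.487 in retina 5 where the others were at 0 to 0.184.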

How the results depend on the processing

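Saa3 was the 1 DEG at 2 weeks under all 34 alternatives, planned or added, with a log2 fold change between 2.88 (pseudocount 10) and 7.30 (pseudocount 0.1). No other gene of those followed passed, and none reversed its direction. The number of genes within 2-fold of naïve, 4762, depended on the settings: it was 0 and 12744 with margins of 1.5-fold and 4-fold, 18 and 12693 with pseudocounts of 0.1 and 10, 31276 with no filter, 1019 with a filter at 5 RPKM, 10424 with array weights, 2536 with only naïve and 2-week retinas, 6 and 8174 with experiment 1 or 2 alone, 8162 with the number of detected genes as a covariate, and 2873 to 5406 with 1 retina left out (2873 without 2-week retina 7, 3038 without 6, 3102 without 2 and 3108 without 3). With a replicate block over numbers 1 to 7 it was 68. Same-numbered retinas deviated with correlations of -0.33 to 0.21, which alone cannot show whether they are pairs. Numbers 5 and 6 belong to experiment 1 in the naïve group and to experiment 2 at 2 weeks, so the numbers are not a pairing. Genes differing from 4 h numbered 802, 368 with a pseudocount of 10, 1527 with array weights and 710 to 913 with 1 retina left out. Genes differing from 18 h numbered 349, 1496 with array weights, 628 without the 3 retinas with the fewest genes and 276 to 445 with 1 retina left out. The interaction of experiment and 2-week difference gave 4 genes with no filter and 0 in the other fits. The cause was not tested. The median difference of all genes ran from -0.02 with quantile normalisation to 0.17 with the replicate block. Read depth per gene is not known from RPKM.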
